A study of Rattus norvegicus with 8 samples.

Results

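The 4 arrays described here hold RNA of MMQ cells, a prolactin-secreting line grown from a rat pituitary tumour, and they are 4 of the 8 arrays of the study. They were chosen by cell line, and the other 4 hold the same treatments in GH3 cells, a related rat line. The 4 MMQ arrays are the control, bromocriptine (BRC), cabergoline (CAB) and the combination (CAB+BRC), with 1 array per condition. Both drugs were prepared from a DMSO stock as dilutions of 50 μM in serum-free medium, with 0.2% DMSO. The CAB array and its control are described for a treatment of 48 h, but the time of the BRC and CAB+BRC arrays, the dose of each drug in the combination and whether the control received DMSO are not stated in the labels or methods. All 4 cultures were thus MMQ cells without any genetic change named in the labels, a single tumour line that cannot stand for prolactinomas in general. The question was what CAB does to the transcripts of these cells, and the design asks it in 2 pairs of arrays that share no array, CAB against the control and CAB+BRC against BRC.

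CAB and BRC are ergot derivatives that act on the dopamine D2 receptor. In the normal pituitary, dopamine from the hypothalamus holds back prolactin release through this receptor, and dopamine agonists are used to lower prolactin and shrink prolactin-secreting tumours. At micromolar doses in culture, such drugs can also act on cells through routes other than this receptor.

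Each array gave 1 intensity, on a linear scale, for each of 28295 probe sets (sets of short probes for 1 transcript). Array medians lay between 45.9 and 47.6 in the MMQ arrays. Differences are given on the log2 scale after adding 1 to the intensity, which understates the change of dim probe sets. The row names of the deposited values did not go with the values, since 2778 pairs of rows that carry the same gene name had mean log2 levels with a correlation of -0.0245 across pairs, and prolactin and other markers of pituitary cells could therefore not be checked. Genes are named only where a printed fold in the study's gene lists equals the ratio of exactly 1 row, which held for 24 of 26 entries. Of these, 20 genes are described, 13 of them listed for CAB in MMQ cells and 7 listed only for BRC in GH3 cells.

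In the first pair, 306 probe sets were at least 2-fold higher with CAB than in the control (1.08% of all) and 389 at least 2-fold lower (1.37%). In the second pair, 246 were higher (0.869%) and 308 lower (1.09%). Both pairs together gave 156 probe sets that were higher by 2-fold or more (0.551%) and 246 that were lower by as much (0.869%), 402 in all. These make up 51.0% of the probe sets higher in the first pair and 63.4% of those higher in the second, and 63.2% and 79.9% of those lower. Opposite directions at 2-fold were found for 3 probe sets. With 1 array per condition there is no replicate check of either pair, and an exact test of 2 arrays against 2 could not pass a threshold.

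**Figure D1:**
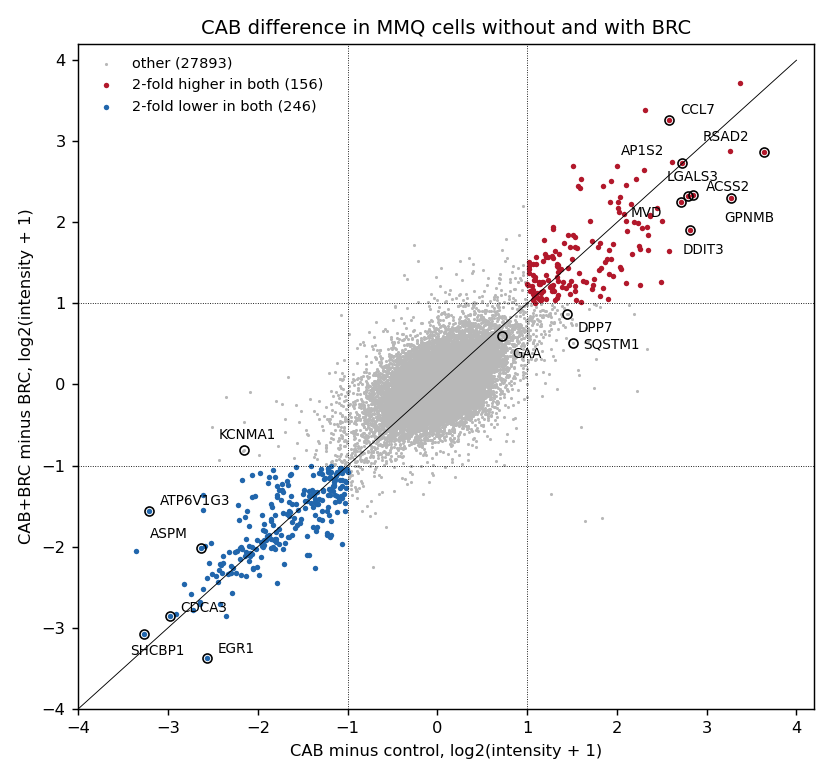
Difference with CAB in MMQ cells on the log2(intensity + 1) scale, without BRC (horizontal axis) and with BRC (vertical axis), 1 point per probe set, with named genes circled and dotted lines at 2-fold. The 156 probe sets higher in both pairs (red) and the 246 lower in both (blue) lie in opposite corners around the line of equal differences (solid), a place set by how they were chosen. SQSTM1, DPP7 and KCNMA1 are 2-fold apart in the first pair alone.

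The probe sets higher in both pairs had a median log2 difference of 1.52 (quartiles 1.21 and 2.02) in the first pair and 1.48 (1.23 and 1.92) in the second. Those lower in both had a median of -1.66 (-2.06 and -1.25) and of -1.58 (-2.00 and -1.31). The medians of all probe sets were 0.02 and 0.00. Larger differences lay more often among the lower probe sets. At least 3-fold in both pairs, 49 were higher and 103 lower, and at least 4-fold, 27 were higher and 52 lower. Only 1 probe set in each direction reached 8-fold in both pairs. The members nearest to the limit had 1.002 as the smaller of their 2 differences among the higher and -1.001 among the lower, and the nearest probe sets outside it had 0.998 and -0.993, so the lists end within a continuous range.

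In intensities, the 156 higher probe sets had a median of 95.1 in the control, 94.0 after BRC, 325 after CAB and 272 after CAB+BRC. The 246 lower ones had a median of 209 in the control, 229 after BRC, 62.2 after CAB and 69.1 after CAB+BRC. The control and BRC arrays thus lay near each other for both lists, and so did the 2 arrays with CAB.

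How often a difference of the first pair was found again in the second depended on its size. Of the 204 probe sets higher by 1 to 1.5 on the log2 scale in the first pair, 37.3% were at least 2-fold higher in the second. This share was 67.3% of the 55 between 1.5 and 2, and 90.7% of the 43 between 2 and 3. For the lower probe sets it was 45.6% of 228, 85.9% of 85 and 90.4% of 73. Starting from the second pair gave higher shares, 50.3%, 81.6% and 97.0% for the higher and 66.9%, 91.2% and 98.4% for the lower. Most of those that missed 2-fold in 1 pair had the same sign there. Of the 150 that were 2-fold higher only in the first pair, 142 were above 0 in the second, with a median log2 difference of 0.72, and of the 143 that were lower only in the first, 131 were below 0, with a median of -0.53. Probe sets that were 2-fold apart only in the second pair were dimmer, with a median mean intensity of 56.9 for the 90 higher and 61.8 for the 62 lower, against 134.5 and 134 for those only in the first pair.

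The agreement of both pairs differed between classes of brightness, and the cause was not tested. When all probe sets were split into 5 equal classes by their mean log2 value over the 4 MMQ arrays, the dimmest class (mean intensity up to 13.4) held 1 probe set that was 2-fold apart in the same direction in both pairs, class 2 held 18, class 3 held 96, class 4 held 182 and the brightest (from 239) 105. Among probe sets 2-fold apart in the first pair, the share that was so in both was 33.3% of 3 in the dimmest class and 37.5% in class 2. It was 58.9% in class 3, 65.7% in class 4 and 51.5% in the brightest. The lower probe sets were most frequent in class 4, at 129, where 53 were higher. In the brightest class the order was turned, with 64 higher and 41 lower. The standard deviation of the difference over probe sets went from 0.21 in the dimmest to 0.49 in class 4 for the first pair, whereas the standard deviation of the second difference minus the first stayed between 0.26 and 0.34. In the dimmest class the pairs therefore disagreed by more (0.26) than either pair varied (0.21 and 0.18), and in the brightest class by less (0.27 against 0.43 and 0.38). Pearson's r between the pairs, across the 5659 probe sets of a class, was 0.09 in the dimmest, 0.32, 0.64 and 0.79 in the next 3 and 0.79 in the brightest. Probe sets are not independent, and this r describes them without a test.

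**Figure D2:**
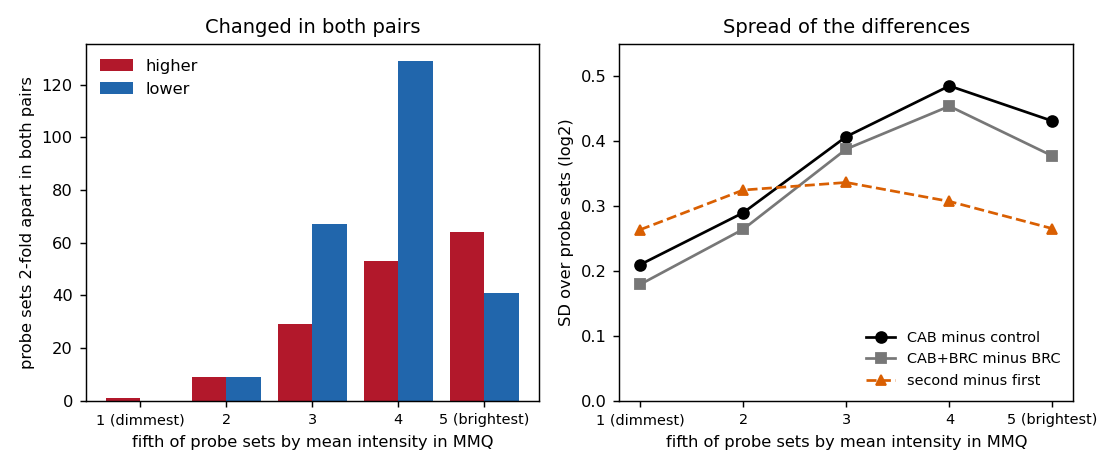
Left, bars count the probe sets that were higher (red) or lower (blue) by 2-fold or more with CAB in both pairs, in each of 5 equal classes of the 28295 probe sets by mean intensity in the 4 MMQ arrays. Right, standard deviation (log2 scale) of each pair's difference and of the second difference minus the first, which is larger than both in the dimmest class (0.26) and smaller than both in the brightest (0.27).

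In both lists the CAB difference had, at the median, nearly the same size with and without BRC, while single probe sets departed either way. The second difference minus the first had a median of -0.01 over the 156 higher probe sets (standard deviation 0.43) and of 0.01 over the 246 lower ones (0.35), against a standard deviation of 0.30 over all probe sets. With BRC present, the difference was smaller for 81 of the 156 and for 126 of the 246. A departure of 2-fold or more was found for 4 of the higher and 4 of the lower probe sets. Over all 28295 it was found for 183 (0.647%), 109 with a more positive and 74 with a more negative CAB difference when BRC was present. Both lists were chosen by being 2-fold apart in each pair, which limits how far their members can depart. In the 3 probe sets that went opposite ways, CAB was higher than the control and CAB+BRC lower than BRC. Intensities in control, BRC, CAB and CAB+BRC were 46.2, 324, 167 and 103 in the first of them. They were 39.9, 167, 97.3 and 64.8 in the second and 61.2, 395, 193 and 122 in the last. In all 3 the BRC array was the highest and the control the lowest, with both CAB arrays between them.

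To give the CAB effect an error, an additive limma model with 1 term per drug was fitted to the 4 MMQ arrays. Its 1 residual degree of freedom measures how far the combination lies from adding up the single drugs. In limma this departure is pulled toward a spread common to the tested probe sets (standard deviation 0.1116, weighted as 4.383 degrees of freedom). The p-values thus rest more on departures pooled over probe sets than on each one's own, and they do not measure the spread between cultures. Among the 14147 brighter probe sets, those whose mean was past the median, 915 rose with CAB (6.47%) and 725 fell (5.12%), 11.6% in all (Benjamini-Hochberg adjusted p under 0.05). All 1640 had the same sign in both pairs, which the fit nearly requires, since disagreement of the pairs is its only residual. Of them, 1050 were under 2-fold in each pair. The median effect was 0.68 for those that rose and -0.78 for those that fell. The split by direction thus differed from the 2-fold lists, with more probe sets higher than lower in limma and more lower than higher at 2-fold or above (198 risen and 262 fallen probe sets had an effect of at least 1). The number of calls depended on the source of the spread. It was 785 (398 higher and 387 lower) when all 8 arrays shared 1 spread, and 504 (236 higher and 268 lower) without the BRC term.

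The named genes fall into groups by function. The 13 genes listed for CAB were identified by the first pair, so only the second pair is a separate measurement of them, and their values are given as a description with no p. In the second pair 8 of the 9 higher genes and the 4 lower genes were again at least 2-fold apart, against 0.869% and 1.09% of all probe sets. Most had large first differences, however. Of all probe sets between 2 and 3 on the log2 scale in the first pair, 90.7% of the higher and 90.4% of the lower were 2-fold apart again. For 11 of the 13 the difference was smaller with BRC present than without it, and a smaller second value is what choosing genes by the first would also give. Ranked by the mean of both differences, RSAD2 was number 2 and CCL7 number 4 of the 156 higher probe sets, SHCBP1 number 1 and CDCA3 number 3 of the 246 lower ones.

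**Figure D3:**
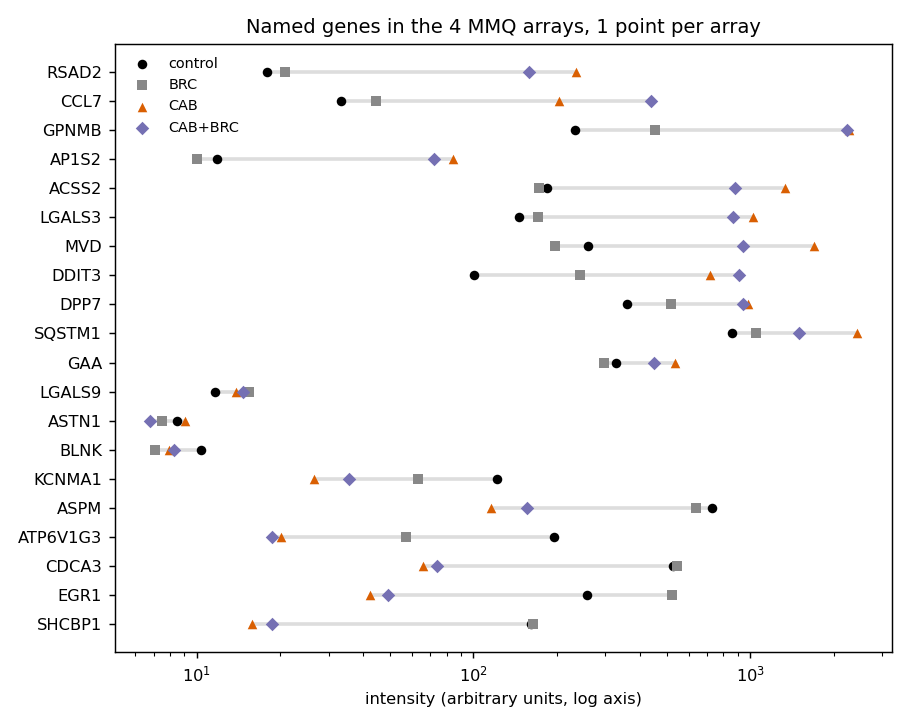
Intensity (log axis) of the 20 named genes in the 4 MMQ arrays, 1 point per array and no error because each condition has 1 array, ordered by the mean CAB difference from RSAD2 (highest) to SHCBP1 (lowest). For most genes both arrays with CAB sit on 1 side of both arrays without it, as for CDCA3 at 66.0 and 74.1 against 528 and 542, while LGALS9, ASTN1 and BLNK stay below 16.

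Genes of sterol and acetyl-CoA supply were higher with CAB in both pairs. MVD, which makes isopentenyl diphosphate in the mevalonate pathway to cholesterol, had an intensity of 259 in the control, 197 after BRC, 1698 after CAB and 939 after CAB+BRC, log2 differences of 2.71 and 2.25. ACSS2, the enzyme that turns acetate into acetyl-CoA, was at 184, 173, 1331 and 881 in the same order, with 2.85 and 2.34. For both, the CAB+BRC array lay below the CAB array while BRC lay below the control.

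Genes of cell division were lower with CAB in both pairs. CDCA3, which helps to start mitosis, was at 528 in the control, 542 after BRC, 66.0 after CAB and 74.1 after CAB+BRC, log2 differences of -2.98 and -2.85. SHCBP1, which acts at the midbody in cell division, was at 161, 165, 15.9 and 18.7, with -3.26 and -3.07. ASPM, which organizes the poles of the mitotic spindle, was at 727, 635, 116 and 156, with -2.64 and -2.02. BRC alone differed from the control by 0.04 for CDCA3, 0.03 for SHCBP1 and -0.20 for ASPM on the log2 scale. SHCBP1 with CAB lay close to the lower quartile of its array (16.6), so its difference is limited by the dim end of the scale.

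Promoters of 5 genes that stand for both directions follow, since genes of a group that move together may share letters near their start. Each runs 5′ to 3′ on the gene's strand from 250 bases before to 50 bases after the annotated start, taken from RefSeq on the build GRCr8. Capitals mark matches, on either strand, to CCAAT (the CCAAT box), TTTGAA (the cell cycle homology region, CHR), the interferon-stimulated response element (ISRE), or TGANTCA (AP-1). The N in TGANTCA is any letter, which makes it a wide form of the AP-1 motif.
Mvd promoter, chr19:67414925-67415224, minus strand: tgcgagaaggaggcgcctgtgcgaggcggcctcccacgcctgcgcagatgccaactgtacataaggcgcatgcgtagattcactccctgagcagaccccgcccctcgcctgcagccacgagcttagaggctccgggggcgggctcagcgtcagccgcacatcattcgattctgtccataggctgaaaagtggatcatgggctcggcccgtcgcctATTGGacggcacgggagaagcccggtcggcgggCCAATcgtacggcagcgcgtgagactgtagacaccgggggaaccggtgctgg
Acss2 promoter, chr3:164464453-164464752, plus strand: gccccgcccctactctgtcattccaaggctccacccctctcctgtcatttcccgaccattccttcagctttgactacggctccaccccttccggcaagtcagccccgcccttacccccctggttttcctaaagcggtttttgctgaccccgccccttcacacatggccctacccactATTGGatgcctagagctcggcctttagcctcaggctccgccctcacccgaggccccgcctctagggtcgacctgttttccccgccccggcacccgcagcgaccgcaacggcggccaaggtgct
Rsad2 promoter, chr6:48788071-48788370, minus strand: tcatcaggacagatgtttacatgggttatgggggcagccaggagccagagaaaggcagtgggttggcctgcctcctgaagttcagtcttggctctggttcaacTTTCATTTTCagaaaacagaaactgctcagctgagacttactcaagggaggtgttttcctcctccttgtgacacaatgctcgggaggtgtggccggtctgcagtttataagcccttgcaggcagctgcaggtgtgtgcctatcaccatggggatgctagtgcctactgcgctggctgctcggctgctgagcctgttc
Cdca3 promoter, chr4:159320953-159321252, plus strand: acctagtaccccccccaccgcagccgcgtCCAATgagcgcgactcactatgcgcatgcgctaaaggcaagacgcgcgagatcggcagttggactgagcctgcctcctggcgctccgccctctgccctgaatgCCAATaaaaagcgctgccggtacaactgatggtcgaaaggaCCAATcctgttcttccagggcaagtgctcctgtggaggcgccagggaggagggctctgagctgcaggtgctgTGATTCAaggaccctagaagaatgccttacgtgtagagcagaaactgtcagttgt
Aspm promoter, chr13:53625334-53625633, plus strand: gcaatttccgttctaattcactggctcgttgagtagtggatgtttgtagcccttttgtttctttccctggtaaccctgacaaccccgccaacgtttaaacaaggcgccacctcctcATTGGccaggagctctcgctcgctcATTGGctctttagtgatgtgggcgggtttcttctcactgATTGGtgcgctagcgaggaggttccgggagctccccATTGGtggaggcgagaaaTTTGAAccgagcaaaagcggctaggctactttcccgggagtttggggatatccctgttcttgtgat

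Of the named genes, 19 had a promoter in the table, and LGALS3 did not. The CCAAT box was found in 9 of the 19, among 37.5% of all 33469 promoters. ASPM held it 4 times, starting 134, 109, 70 and 34 bases before the start, with a CHR at 16 bases before it. CDCA3 held it 3 times and SHCBP1 held none of the motifs searched. MVD held the CCAAT box 2 times and ACSS2 once. The ISRE stood in RSAD2 and LGALS9 and in 3.92% of all promoters. CHR stood in 2 of the 19 and in 18.3% of all, and AP-1 in 5 of the 19 and in 7.33% of all. The AP-1 match reads TGATTCA in CCL7 and CDCA3, and TGACTCA or TGAGTCA in DDIT3, GPNMB and LGALS9. The E-box (CACGTG) stood in GAA and AP1S2 and in 6.42% of all promoters. No promoter of the 19 held TCACNCCAC (sterol regulatory element, 1.12% of all) or TGATGNAA (the ATF4 element CARE, 3.98%). A match is a string of letters, and the arrays do not show whether any factor binds there.

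**Figure D4:**
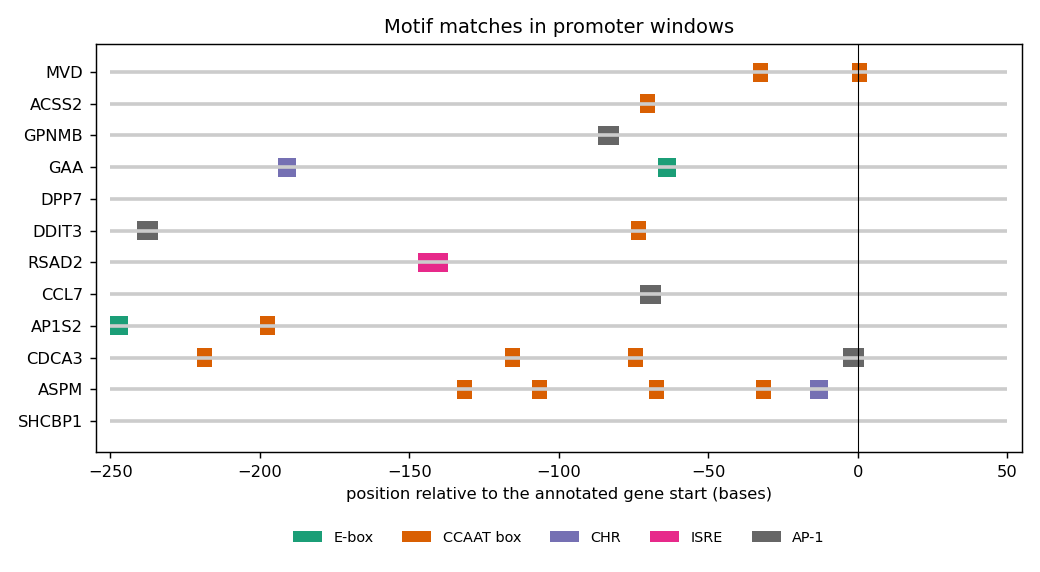
Positions of motif matches on either strand (coloured boxes) in the promoter windows of 12 named genes, in bases from the annotated start (vertical line at 0). ASPM and CDCA3 carry 4 and 3 CCAAT boxes, and DPP7 and SHCBP1 carry none of the motifs.

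The named genes with the largest mean difference among the higher ones were 2 genes of innate immunity. RSAD2, an antiviral enzyme induced by interferon, was at 18.0 in the control, 20.8 after BRC, 235 after CAB and 159 after CAB+BRC, log2 differences of 3.64 and 2.87. CCL7, a chemokine that attracts monocytes, was at 33.3, 44.5, 204.5 and 437, with 2.58 and 3.27. CCL7 was one of the 2 listed genes whose difference was larger with BRC present. Both genes were below the array median (47.3) in the control and were bright enough to be tested only through the arrays with CAB.

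Genes of the lysosome and of vesicle traffic differed in direction. GPNMB, a transmembrane glycoprotein found in lysosomes and melanosomes, was at 233 in the control, 454 after BRC, 2267 after CAB and 2237 after CAB+BRC, log2 differences of 3.28 and 2.30. AP1S2, a subunit of a clathrin adaptor, was at 11.9 in the control, 84.5 with CAB and 72.3 with CAB+BRC, and BRC minus control was -0.23 on the log2 scale. It differed by 2.73 in the first pair and 2.74 in the second. ATP6V1G3, part of the V-ATPase that pumps protons into lysosomes, was lower, at 196, 57.1, 20.2 and 18.7, with -3.22 and -1.56. For ATP6V1G3, BRC minus control was -1.76, and both arrays with CAB lay near each other from different starts. LGALS3, a galectin that binds damaged lysosomes and the only named gene in both of the study's lists, was at 146, 171, 1021 and 865, with 2.80 and 2.33.

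A stress gene and an autophagy gene were both less far apart with BRC present. DDIT3 (CHOP), which drives transcription when the endoplasmic reticulum is stressed, was at 101 in the control, 243 after BRC, 714 after CAB and 910 after CAB+BRC, log2 differences of 2.81 and 1.90. The highest of its 4 values was thus the combination, and the smaller second difference came with a BRC array that was 1.26 above the control. SQSTM1, a receptor that brings ubiquitinated cargo to autophagosomes, was at 857, 1053, 2433 and 1498, with 1.51 and 0.51. It was the only one of the 13 genes that was under 2-fold in the second pair.

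The 7 genes that were listed only for BRC in GH3 cells were identified by GH3 arrays, so their MMQ values are a separate measurement and were tested. EGR1, a zinc finger transcription factor switched on early by ERK, was at 256 in the control, 521 after BRC, 42.4 after CAB and 49.3 after CAB+BRC. It fell with CAB by 2.57 and 3.37 on the log2 scale in the 2 pairs, a limma effect of -2.97 (standard error 0.20, adjusted p = 0.00159), and was second among the 246 lower probe sets. The BRC array was the highest of the 4 and the arrays with CAB the lowest, whether BRC was present or not. EGR1 passed the brightness limit (46.95) only through the arrays without CAB, and with all probe sets tested its adjusted p in limma was 0.000293. KCNMA1, the BK channel that lets potassium out when calcium rises, was at 122, 62.9, 26.5 and 35.5, with differences of -2.16 and -0.81 and a limma effect of -1.48 (standard error 0.31, adjusted p = 0.0404). Its mean intensity of 52.0 passed the brightness limit (46.95) only through the arrays without CAB, and with all probe sets tested its adjusted p in limma was 0.0282. DPP7, a lysosomal dipeptidyl peptidase, was at 360, 516, 983 and 944, with differences of 1.45 and 0.87, and rose by 1.16 (standard error 0.16, adjusted p = 0.0140). GAA, the lysosomal enzyme that breaks down glycogen, was at 326, 297, 536.5 and 450, with differences of 0.72 and 0.60, and rose by 0.66 (standard error 0.10, adjusted p = 0.0202). When all 8 arrays shared the spread, the adjusted p in limma was 0.116 for KCNMA1, 0.171 for DPP7 and 0.325 for GAA. For EGR1 it stayed under 0.05. The GH3 control and BRC arrays that identified these genes also enter this spread, so the values do not rank the 4 genes. LGALS9, BLNK and ASTN1 were too dim to be tested, with all 4 intensities between 6.79 and 15.4.

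In GH3 cells the lower list was also low with CAB against the GH3 control, and near 0 against BRC. Of the 246 probe sets, 100 (40.7%) were 2-fold or more below the GH3 control in the GH3 array with CAB, where 1.16% of all probe sets were, and 228 (92.7%) were below 0, against 51.2% of all. Their median log2 difference was -0.89, against -0.01 for all probe sets. In CAB+BRC against BRC in GH3 cells, 0 of the 246 were 2-fold lower (0.0177% of all), with a median of -0.13 against -0.01 for all probe sets, and 188 (76.4%) were below 0, against 52.5% of all. Median intensities of these probe sets were 293 in the GH3 control, 194 after BRC, 147 after CAB and 180 after CAB+BRC, so that each GH3 array with a drug lay below the control. The 156 higher probe sets showed less of this in GH3 cells. There, 16 (10.3%) were 2-fold higher and 12 (7.69%) 2-fold lower with CAB than in the control, against 1.27% and 1.16% of all probe sets, with a median of 0.13, and in CAB+BRC against BRC 0 were apart in either direction, where 0.0884% of all were higher. No GH3 array took part in choosing these lists. The GH3 pairs have 1 array per condition as well, and the part of the single GH3 control array in these values was not tested.

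**Figure D5:**
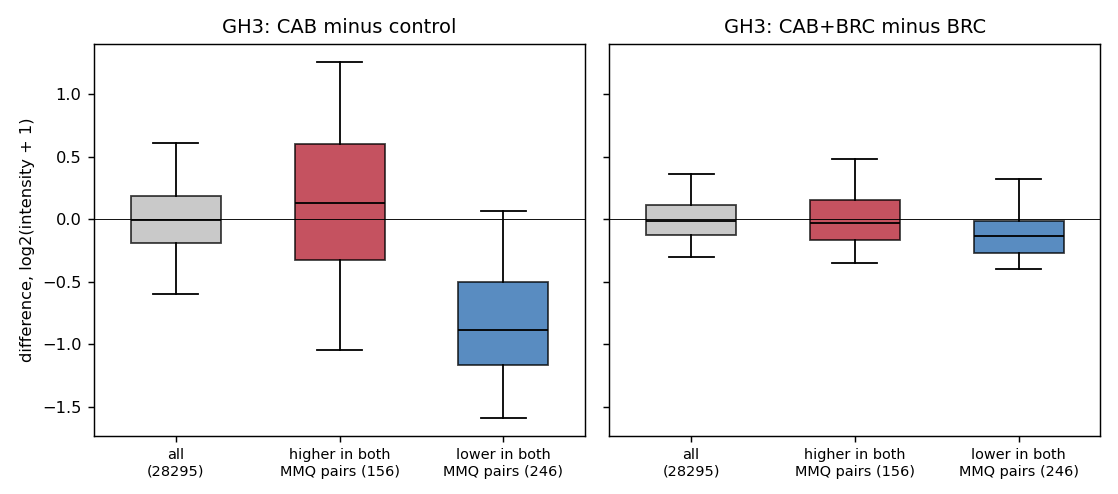
Difference on the log2(intensity + 1) scale in GH3 cells, for CAB against control (left) and CAB+BRC against BRC (right), over all 28295 probe sets (grey), the 156 higher (red) and the 246 lower (blue) in both MMQ pairs. Boxes span the quartiles with the median as a line, and whiskers the 5th to the 95th percentile. The blue box lies lowest on the left, at a median of -0.89, and near 0 on the right, at -0.13.

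Among the named genes, the 3 division genes were lower with CAB in the first GH3 pair and under 2-fold apart in the second. CDCA3 was at 688 in the GH3 control, 436 after BRC, 301 after CAB and 334.5 after CAB+BRC, log2 differences of -1.19 and -0.38. SHCBP1 was at 263, 128, 85.8 and 120.5 in the same order, with -1.60 and -0.09. ASPM was at 733, 389, 399 and 449, with -0.88 and 0.21, so that BRC alone was as low as CAB. ATP6V1G3 was at 969, 194, 299 and 219, with -1.69 and 0.17, and BRC alone was the lowest of its 4 arrays.

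The 9 genes that were higher with CAB in MMQ cells did not share 1 direction in GH3 cells. AP1S2 and LGALS3 were 2-fold higher in the first GH3 pair, AP1S2 at 170 with CAB against 72.2 in the control (1.23 on the log2 scale) and LGALS3 at 305 against 124 (1.29). LGALS3 is also in the study's list for BRC in GH3 cells, which uses the same control array. In that pair ACSS2 differed by 0.68, GPNMB by 0.56, RSAD2 by 0.18 and CCL7 by 0.17. MVD differed by -0.33, SQSTM1 by -0.30 and DDIT3 by -0.97. In the second GH3 pair all 9 were under 2-fold, from -0.40 for CCL7 to 0.38 for AP1S2.

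KCNMA1, lower with CAB in MMQ cells, was at 233 with CAB against 72.4 in the GH3 control, and at 251.5 with CAB+BRC against 262 with BRC. EGR1 was at 791 with CAB against 413 in the GH3 control, and at 2390.0 with CAB+BRC against 2037 with BRC. In a limma fit of all 8 arrays, the CAB effect in MMQ minus that in GH3 cells was positive past the threshold for 0.368% of the probe sets and negative for 0.233%. It was -2.29 for KCNMA1 (standard error 0.62) and -3.55 for EGR1 (standard error 0.34), and 0.24 for DPP7 and -0.10 for GAA, with standard errors of 0.58 and 0.48. The GH3 effect in this contrast is the mean of both GH3 pairs. DPP7 differed by 1.90 in the first GH3 pair and -0.06 in the second, and GAA by 1.57 and -0.06. The contrasts of DPP7 and GAA thus average unlike pairs and do not show that CAB acted alike in both lines. These 4 genes were identified by the GH3 control and BRC arrays, which also enter this contrast, so no p is given for them.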

How the data were processed

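RNA of each culture was hybridized to 1 rat Affymetrix GeneChip. The authors deposited 1 linear intensity per probe set, for which their methods name Command Console. How probes were summarized, corrected for background and scaled is not stated there, and detection calls were not used. From these, log2(intensity + 1) was taken for all 28295 probe sets without further scaling. Samples were grouped by the labels. Differences were formed for CAB against control and CAB+BRC against BRC, and a probe set counted as changed in both when it was at least 2-fold apart in the same direction, the cutoff in the study's methods. The additive model (CAB and BRC) was fitted to the 4 MMQ arrays with limma 3.58.1 (lmFit, eBayes) in R 4.3.3, two-sided, over the brighter probe sets (mean over the 4 arrays past the median). The fit and the 2-fold rule were also run on simulated data. These took their means and spread from the real arrays and their fit, so they are no independent check. The contrast of CAB between lines was chosen after seeing the data and comes from a fit of all 8 arrays. Named genes are those of the study's gene lists whose printed fold equals 1 row's ratio within a relative tolerance of 1e-06. None of the 23 matched rows carried the gene's own name in the annotation, and 2 entries without a match and 3 matched genes are not reported here. The cell lines, members and gene groups were chosen with earlier results of these data known. Alternatives were quantile normalization, centring on the median, a pseudocount of 16, folds of 1.5 and 3, other filters, a brightness trend, no BRC term, 1 spread for all 8 arrays, and each MMQ array left out. Precision is limited by how few arrays there are.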

Additional observations from a re-analysis of the deposited data

Results flagged for a closer look

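The CAB effect differed between MMQ and GH3 cells for 85 of 14147 probe sets in the limma fit of all 8 arrays, 52 with a higher effect in MMQ cells (0.368%) and 33 with a lower one (0.233%), and 2227 had an unadjusted p under 0.05. The GH3 effect in this fit is the mean of both GH3 pairs, which differed. Of all probe sets, 1.27% were 2-fold higher and 1.16% 2-fold lower in GH3 cells for CAB against control. For CAB+BRC against BRC these shares were 0.0884% and 0.0177%. The 85 include 7 of the named genes. On the log2 scale, MMQ minus GH3 was 3.34 for RSAD2, 3.04 for CCL7, 2.75 for MVD, 2.59 for GPNMB and 2.34 for ACSS2, and it was -2.13 for CDCA3 and -3.55 for EGR1. EGR1 was identified by the GH3 BRC and control arrays and the other 6 by the MMQ CAB and control arrays, all of which enter this contrast. RSAD2 and CCL7 also passed the brightness limit only through the arrays with CAB, and EGR1 only through those without CAB. The values are therefore a description of selected genes, with no p and no independent evidence of a difference between the lines.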

How the results depend on the processing

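The 2-fold limit sets the size of both lists. At 1.5-fold in both pairs, 535 probe sets were higher and 506 lower, and at 3-fold 49 and 103. With the list taken at 1.5-fold, 24.3% of the lower probe sets were also 2-fold lower with CAB in GH3 cells. With a pseudocount of 16, the 3 dimmest of the 5 brightness classes held 0, 1 and 61 probe sets of both lists. Departures of 2-fold numbered 97 among the brighter 14147 probe sets and 183 among all. The limma counts depended on the spread used, with 236 higher and 268 lower without the BRC term and 398 and 387 in the fit of all 8 arrays. In that fit, leaving out 1 MMQ array left 1 complete MMQ pair, whose difference was then the CAB effect, with residual spread from GH3 arrays alone. Without the control or the CAB array, only the second pair was left, with 88 higher and 125 lower both times. Without the BRC or the CAB+BRC array, only the first pair was left, with 114 higher and 142 lower both times. The fits thus repeat each other and hold no spread between MMQ arrays. DPP7 lost its call in 5 of 12 alternatives, GAA in 6 of 12 and KCNMA1 in 6 of 11. EGR1 kept its call in all 11 in which it was tested, with adjusted p between 0.000218 and 0.0129. No direction was reversed. The alternatives counted for these genes include the fits without 1 MMQ array, which are not separate checks. The pairing by BRC is part of the additive model, and leaving out the BRC term, as given here, removes it. The labels give no replicate numbers, so no block by replicate could be fitted.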
